A study of Mus musculus with 36 samples.

Results

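Primary cultures of mouse cortical cells were treated with dexamethasone (DEX), a synthetic glucocorticoid, or with DEX together with RU-486 (mifepristone), and the 2 treatments were compared in the second of the study's 2 batches to see what the antagonist changes on top of DEX. The comparison used the 8 batch 2 libraries with a labelled RNA integrity number (RIN) of 6 or above, out of 36 libraries in the series: 4 of DEX + RU-486 (numbers 33 to 36) and 4 of DEX (numbers 27 to 30). All 20227 genes with a mean count above 5 over these 8 libraries were tested, out of 55487 in the table. The cells came as dissociated embryonic day 18 cortex and were cultured for 10 days. They then received 1 µM DEX, or 1 µM DEX and 1 µM RU-486, for 72 h, with the treatment renewed at 48 h, so every culture compared here had DEX in its medium. The 4 control libraries of the same batch (numbers 21 to 24), from cultures given fresh growth medium without either compound, are shown beside them. The labels do not say whether the libraries of a group came from separate platings of cells, so the p-values measure the spread between these libraries, which may be partly technical. They also name no vehicle for the controls. No group received RU-486 alone, so an effect of RU-486 itself cannot be told apart from a block of DEX.

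DEX binds the glucocorticoid receptor, a ligand-activated transcription factor held in the cytoplasm by chaperones until hormone binds, after which it enters the nucleus and switches target genes on or off. RU-486 occupies the same ligand pocket without full activation and so competes with DEX. Neurons and glia of the cortex all carry the receptor. Oligodendrocytes, which wrap axons in myelin, arise from precursors that are present in embryonic cortical cultures, and glucocorticoids have long been used as an additive in media in which these cells mature.

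The libraries held between 21333085 and 29263007 counts, and RIN lay between 7.4 and 7.7 in DEX and between 7.6 and 8.7 in DEX + RU-486. All genes of the mitochondrial genome together took 35.6% to 37.9% of the counts in DEX and 21.5% to 34.1% in DEX + RU-486, with no overlap between the groups. Libraries stood apart within both groups. DEX + RU-486 libraries 35 and 36 had the highest RIN (8.7 and 8.5) and the lowest mitochondrial share (23.5% and 21.5%), while libraries 33 and 34 (RIN 7.8 and 7.6, share 34.1% and 32.4%) were nearer to DEX. DEX library 27 had the fewest genes with exactly 1 count, 430, against 1037 to 3614 in the other 7, and its correlation with them over log CPM was 0.919 to 0.930. The genes past the threshold and several of the gene lists are therefore also given without libraries 35 and 36, which leaves RIN of 7.6 and 7.8 against 7.4 to 7.7, or without libraries 27 and 28.

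With RU-486 added to DEX, 7 genes fell and 1 rose at an adjusted p under 0.05 (edgeR quasi-likelihood test, Benjamini-Hochberg adjustment over all genes), which is 0.0396% of the genes tested. Among the lower genes were the myelin genes Mobp, Mal and Mag, the actin motor Myo6 and the mitochondrially encoded mt-Nd6. The higher gene was Lars2. The direction of all 8 was the same in every left-out-library fit, but the number of genes past the threshold depended on the test. DESeq2 called 300 genes higher and 361 lower of 20227, of which 8235 got no adjusted p. The DESeq2 counts in the gene lists below are to be read against these numbers. A fit that also held the 4 controls called 154 and 160, whereas the fit with RIN as a covariate called only Mobp. At an unadjusted p under 0.05, 1493 genes (7.38%) were higher and 1532 (7.57%) lower. These counts, the background for the gene lists below, rested in part on single libraries, with 769 and 1008 without library 36, 284 and 569 of 20092 without libraries 35 and 36, and 295 and 378 with RIN as a covariate. The 4 libraries of each group did not overlap in CPM, the normalised count scaled to library size, for 890 genes in the higher direction (4.4%) and 815 in the lower (4.03%). The log2 fold changes of all genes had a median of 0.0044.

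**Figure D1:**
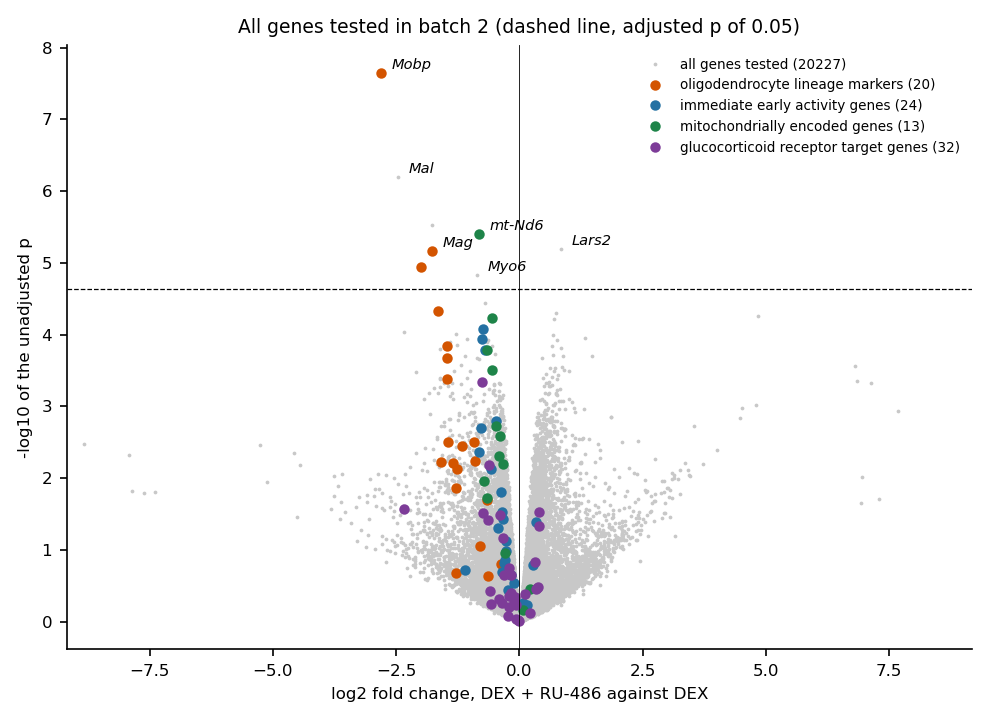
Each point is a gene, with the log2 fold change of DEX + RU-486 against DEX on the x axis and -log10 of the unadjusted edgeR p on the y axis. Of the 8 genes above the dashed line, 7 lie on the left and Lars2 on the right, and the 20 oligodendrocyte lineage markers all lie left of 0.

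Mobp, the myelin-associated oligodendrocyte basic protein, had the smallest p of all genes. In DEX libraries 27, 28, 29 and 30 its level was 70.1, 99.6, 130.2 and 105 CPM, and in DEX + RU-486 libraries 33, 34, 35 and 36 it was 17.3, 19.2, 8.11 and 13.6 CPM. Every library with the antagonist was below every DEX library, and the means differed 6.96-fold. This is a log2 fold change of −2.80 with an SE of 0.24 (adjusted p = 0.000456). The 4 controls, at 21.2 to 27.1 CPM, lay between the groups. Without libraries 35 and 36 the log2 fold change was −2.48 (adjusted p = 0.00223) and with RIN as a covariate −2.44 (adjusted p = 0.0126). Without libraries 27 and 28 it was −3.02 (adjusted p = 0.00408). In the DEX and the DEX + RU-486 library of equal RIN, 7.6 (numbers 30 and 34), the levels were 105 and 19.2 CPM. The gene lies on chromosome 9, from 120149707 to 120181484 on the plus strand of GRCm38 (ENSMUSG00000032517).

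Mal, a small proteolipid of compact myelin and of sorting vesicles (chromosome 2, 127633226 to 127656695, minus strand), measured 11.8, 17.2, 28.3 and 20.6 CPM in DEX and 3.12, 4.57, 2.23 and 4.21 CPM with RU-486. The groups were well separated, and the controls, at 3.06 to 4.63 CPM, overlapped the antagonist group. The log2 fold change was −2.46 with an SE of 0.28 (adjusted p = 0.0064), and without libraries 35 and 36 it was −2.34, at an adjusted p of 0.0637. Without libraries 27 and 28 it was −2.79 (adjusted p = 0.00408).

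Mag, an adhesion protein of the innermost myelin wrap that faces the axon (chromosome 7, 30899176 to 30914873, minus strand), measured 38.01, 46.0, 52.3 and 40.7 CPM in DEX and 15.7, 19.8, 7.36 and 9.18 CPM with RU-486. Again no library with the antagonist reached the DEX range. The log2 fold change was −1.77 with an SE of 0.25 (adjusted p = 0.0229), and −1.32 (adjusted p = 0.0281) without libraries 35 and 36. Without libraries 27 and 28 it was −1.85, past the threshold no longer (adjusted p = 0.277).

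**Figure D2:**
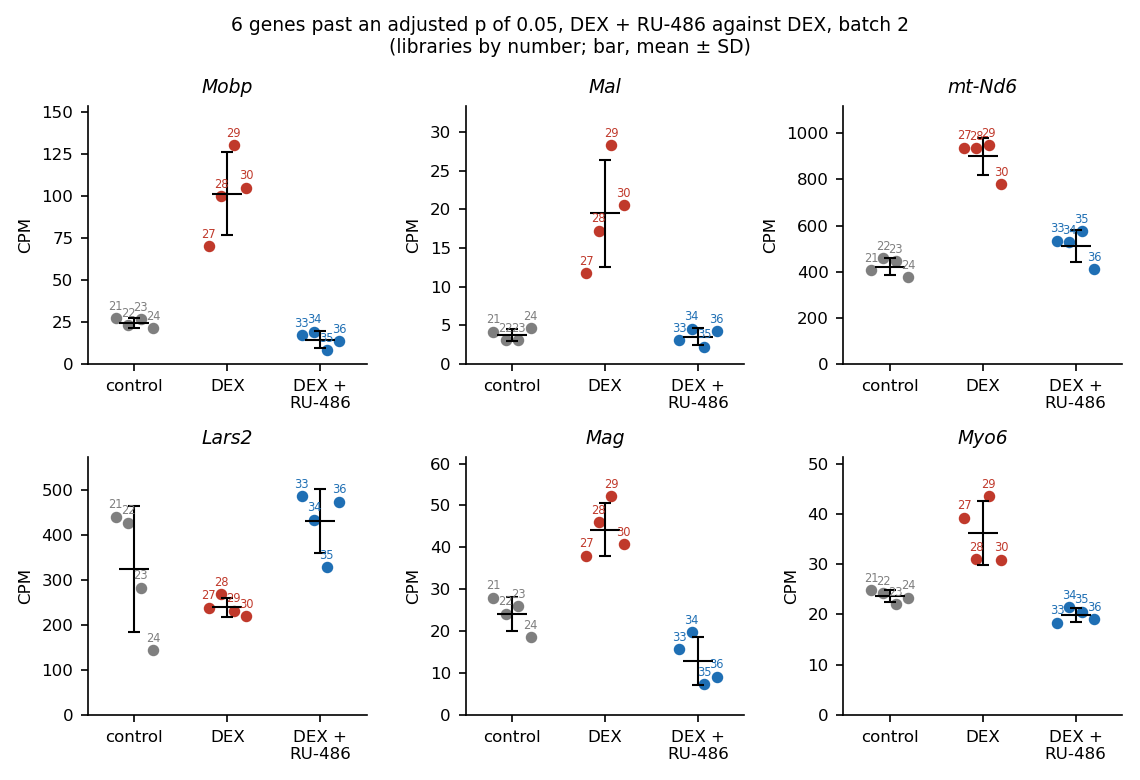
Level in CPM (y axis) of 6 of the genes past an adjusted p of 0.05 in each batch 2 library of RIN 6 or above, with library numbers at the points and bars at the mean ± SD of 4 libraries. For each gene the DEX and DEX + RU-486 points do not overlap, and for Mobp the DEX points lie at 70.1 CPM or above while those with RU-486 lie at 19.2 CPM or below.

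Promoters are shown for 2 of the lowered myelin genes and, as a contrast, for the classical receptor target Sgk1, which did not pass the test. The letters are the 250 bases before the start site in RefSeq (GRCm38.p6), with capitals for a match to the motif of Myrf, the transcription factor of myelinating cells (CTGGCAC or CTGGTAC, either strand), or to a full glucocorticoid response element (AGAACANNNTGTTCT, a palindrome, so both strands are read at once). The windows are chr9:120149492-120149741 (plus strand) for Mobp, chr7:30914864-30915113 (minus strand) for Mag and chr10:21993640-21993889 (plus strand) for Sgk1.
Mobp: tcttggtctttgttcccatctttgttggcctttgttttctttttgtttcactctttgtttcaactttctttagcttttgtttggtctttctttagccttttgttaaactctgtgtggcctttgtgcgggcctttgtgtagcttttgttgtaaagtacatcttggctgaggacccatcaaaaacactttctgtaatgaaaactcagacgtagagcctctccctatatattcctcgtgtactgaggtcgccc
Mag: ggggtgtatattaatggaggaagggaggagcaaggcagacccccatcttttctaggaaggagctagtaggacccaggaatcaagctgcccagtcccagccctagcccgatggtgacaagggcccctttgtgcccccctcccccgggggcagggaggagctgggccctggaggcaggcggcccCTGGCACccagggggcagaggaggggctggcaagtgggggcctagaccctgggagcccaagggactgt
Sgk1: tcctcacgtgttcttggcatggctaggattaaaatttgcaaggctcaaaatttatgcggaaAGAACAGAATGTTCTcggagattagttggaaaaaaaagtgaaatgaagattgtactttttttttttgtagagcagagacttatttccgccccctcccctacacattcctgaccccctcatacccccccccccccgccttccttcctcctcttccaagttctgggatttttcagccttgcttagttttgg
Mag held 1 match to the Myrf motif, beginning 68 bases before the start shown. The same match lies in the window of another of its 3 listed starts, which overlaps the one shown. The windows of Mobp, Mal, Myo6 and Lars2 held neither motif. Sgk1 held the receptor element before 1 of its 6 starts, beginning 189 bases before it. Of 32851 promoter windows of this length, 5.93% held the Myrf motif and 0.00913% the full receptor element. A match here is a run of letters and not a measured binding site. mt-Nd6 had no entry in the table.

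The whole list of oligodendrocyte lineage markers lay on the lower side, although most members did not pass the adjusted test singly. All 20 markers passed the count filter and all 20 had a log2 fold change below 0, with a median of −1.32, against 49.5% of all genes below 0. Of the 20, 3 were past the adjusted threshold, 16 had an unadjusted p under 0.05, and 11 were lower without overlap of the libraries. Of all genes, 7.57% were lower at that p and 4.03% were lower without overlap. DESeq2 called 11. Bulk RNA cannot tell fewer cells of a type from less RNA per cell.

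By role, the lineage transcription factor Sox10 measured 35.9, 24.7, 22.5 and 15.8 CPM in DEX and 9.58, 11.2, 4.70 and 6.13 CPM with RU-486 (log2 ratio −1.64, SE 0.28, adjusted p = 0.0873). The transcription factors Olig1 and Olig2 had values of −0.90 and −0.92. Among structural and enzymatic myelin genes, Mbp, the basic protein that compacts the membrane, measured 337, 421, 524 and 447 CPM in DEX and 209, 232, 76.6 and 105 CPM with RU-486 (−1.47, SE 0.28, adjusted p = 0.0967). Cnp, an enzyme of non-compact myelin, had a value of −1.47, and Ugt8a, which makes the myelin lipid galactosylceramide, also −1.47. The precursor markers Pdgfra, a growth factor receptor, and Cspg4, the NG2 proteoglycan, had values of −0.66 and −1.16. Mog, a late protein of the outer myelin surface, was the smallest in size at −0.38 (SE 0.25). Of the markers named here, only Mobp and Mag passed the adjusted threshold.

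The summed level of the 20 markers was 1003, 1202, 1561 and 1134 CPM in DEX libraries 27 to 30 and 509, 581, 196 and 268 CPM in DEX + RU-486 libraries 33 to 36. The controls lay between, at 571 to 774 CPM, overlapping library 34. Libraries 33 and 34 thus stood near the controls and libraries 35 and 36 well below them. Without libraries 35 and 36 all 20 markers were still below 0, with a median of −0.88, and 3 of them, with Mobp and Mag, were past the adjusted threshold. With RIN as a covariate all 20 were below 0 with a median of −0.81, and only Mobp was past it. Without DEX libraries 27 and 28, 19 of 19 tested were below 0 with a median of −1.30.

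**Figure D3:**
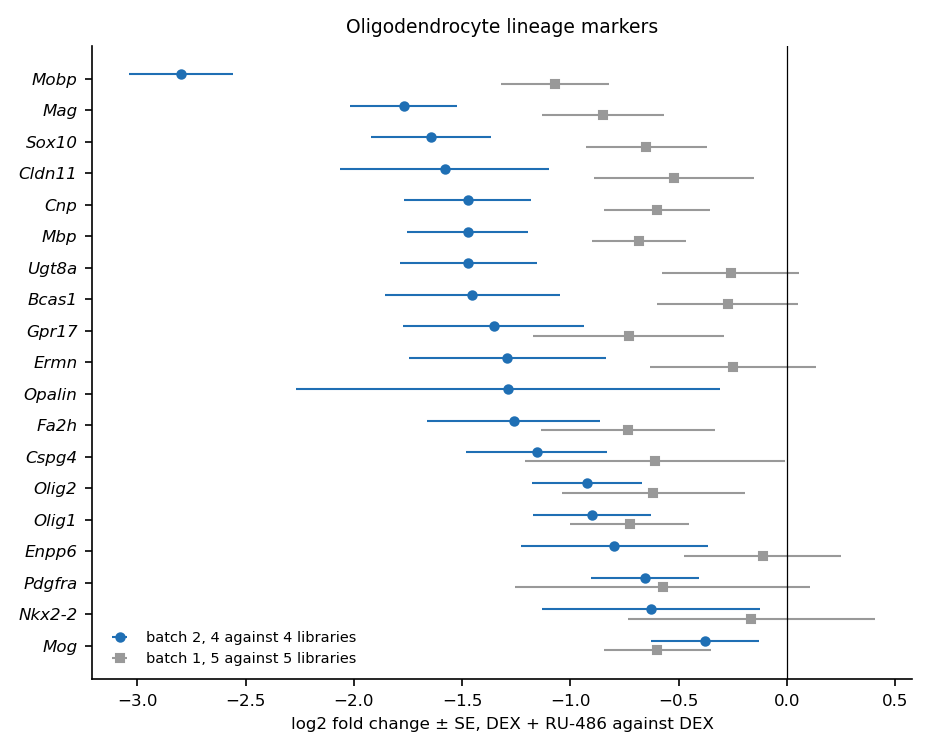
Log2 fold change ± SE of DEX + RU-486 against DEX (x axis) for 19 of the oligodendrocyte lineage markers in batch 2 (blue) and, where tested, in batch 1 (grey). All blue points and all grey points lie below 0, and the blue point of Mobp lies at −2.80 against −1.07 in grey.

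Markers of other cell types moved less evenly. Of the 19 astrocyte markers tested, out of 21, 16 were below 0 with a median of −0.62. At an unadjusted p under 0.05, 10 were lower, against 7.57% of all genes, but not every member was low. Slc1a2, the main astrocytic glutamate transporter, had a value of −0.14, Gfap, the intermediate filament, −0.62 with a wide error (SE 0.57), and Clu, apolipoprotein J, 0.07. The median was −0.29 without libraries 35 and 36.

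Interneuron markers separated libraries rather than treatments. Of 14 tested, out of 16, 13 were below 0 with a median of −0.66, 7 had an unadjusted p below 0.05 in the lower direction and 1 (Calb2, calretinin) in the higher, and edgeR and DESeq2 each called 0. Sst, the neuropeptide somatostatin, measured 155, 154, 158 and 122 CPM in DEX and 139.9, 103, 27.3 and 32.1 CPM with RU-486. Gad2, which makes GABA, measured 74.7, 73.8, 101 and 76.1 CPM against 78.9, 66.0, 25.6 and 28.4 CPM. In both genes libraries 33 and 34 lay at or near the DEX range and libraries 35 and 36 far below it. The summed markers were 806 to 947 CPM in DEX, 763 to 901 CPM in libraries 33 and 34, and 327 to 363 CPM in libraries 35 and 36. Without these 2 libraries the median was −0.08 and no member had an unadjusted p under 0.05.

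Among the 20 neuron markers a split between libraries was seen in Slc17a7. This gene, which encodes the vesicular glutamate transporter VGLUT1, measured 5.90, 7.93, 6.30 and 10.6 CPM in DEX and 8.60, 10.8, 26.5 and 24.5 CPM with RU-486 (log2 ratio 1.21, SE 0.33, adjusted p = 0.156), so the difference lay in libraries 35 and 36. Over the 20 neuron markers the median was 0.12, with 7 higher and 4 lower with an unadjusted p below 0.05 and 0 past the adjusted threshold. DESeq2 called 3 higher and 2 lower. Without libraries 35 and 36 the median was 0.03 with 1 higher and 2 lower, and with RIN as a covariate it was 0.02 with 0 in either direction. Summed, these markers were the most abundant of the cell type lists, at 4152 to 4465 CPM in DEX and 4242 to 4716 CPM with RU-486, as the label of cortical cells implies. Microglia markers were scarce, at 7.78 to 24.2 CPM summed over 17 genes, of which 9 passed the count filter. Endothelial, pericyte and fibroblast markers summed to 3.46 to 10.1 CPM. Of the dividing cell markers, 0 of 20 were past the threshold, with 2 lower with an unadjusted p below 0.05 and 0 called by DESeq2.

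**Figure D4:**
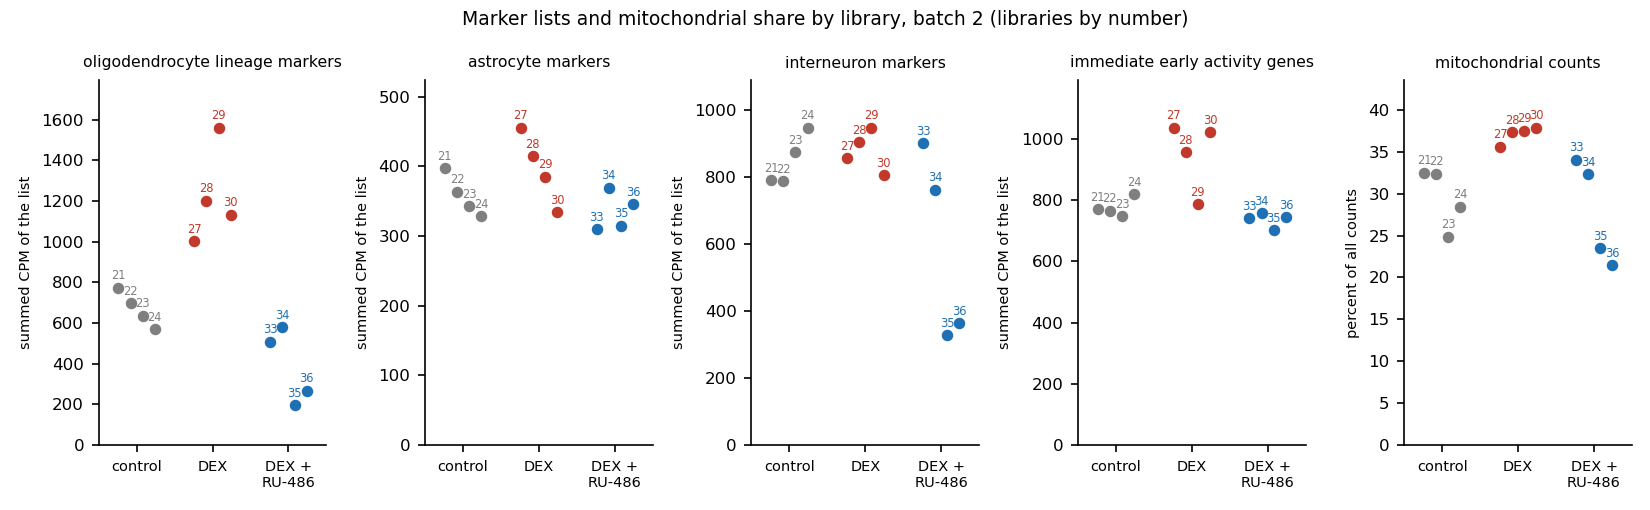
Summed CPM of 4 gene lists and the percentage of counts on mitochondrially encoded genes (y axes) in each batch 2 library, with library numbers at the points. The oligodendrocyte sum is higher in the 4 DEX libraries (1003 to 1561 CPM) than in the 4 with RU-486 (196 to 581 CPM), while the interneuron sum is low in libraries 35 and 36 only.

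Genes known as direct targets of the glucocorticoid receptor did not pass the adjusted test in this comparison, and a few of them were separated between the groups. Of 36 listed, 32 passed the count filter, 24 were below 0 and 8 above, and the median was −0.19. The median was −0.04 without DEX libraries 27 and 28 (19 below 0 and 13 above), −0.08 with RIN as a covariate (20 and 12) and −0.12 without libraries 35 and 36 (21 and 11). Of these 0 passed the adjusted threshold in edgeR, with 6 lower and 2 higher with an unadjusted p below 0.05, and DESeq2 called 2 lower. Fkbp5, the receptor's own co-chaperone and a standard readout of its activity, measured 19.1, 15.9, 17.7 and 16.1 CPM in DEX and 14.2, 16.7, 9.83 and 11.7 CPM with RU-486. The groups overlapped, and the log2 fold change was −0.39 with an SE of 0.16 (adjusted p = 0.285). Tsc22d3, which encodes the leucine zipper protein GILZ, had a value of −0.21 (SE 0.15), Sgk1, a kinase that regulates ion channels, −0.11 (SE 0.16), and the clock gene Per1 −0.0036 (SE 0.11), all with overlapping libraries.

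The listed targets with separated groups were Klf9, Tsc22d4, Zbtb16 and Pdk4. Klf9, a zinc finger factor that responds to glucocorticoid and thyroid hormone, measured 9.81, 11.8, 9.45 and 11.9 CPM in DEX and 4.88, 6.60, 7.68 and 8.67 CPM with RU-486 (−0.62, SE 0.19, adjusted p = 0.182). Tsc22d4, a relative of GILZ, measured 15.002, 14.7, 15.5 and 17.1 CPM against 10.7, 11.2, 7.21 and 7.61 CPM (−0.76, SE 0.17, adjusted p = 0.128). Zbtb16 had a value of −0.33, and Pdk4, a brake on pyruvate use, was at 0.203 to 0.751 CPM in DEX and at 0 to 0.145 CPM with RU-486 (−2.35, SE 0.94). The share of the 32 that were lower without overlap, 4 of 32, compares with 4.03% of all genes.

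Against the controls of the same batch, in a fit that shares the DEX libraries with the comparison above, DEX itself gave log2 fold changes of 0.11 for Fkbp5, −0.15 for Tsc22d3, −0.04 for Per1 and −0.26 for Sgk1, none past the adjusted threshold. In that fit 67 genes (0.324%) were higher and 49 (0.237%) lower in DEX than in control. In edgeR, DEX + RU-486 against control gave 0 genes higher (0.0%) and 1 lower (0.00484%), and an unadjusted p below 0.05 for 757 in the higher direction and 776 in the lower. DESeq2 was not run on these 2 contrasts. Larger values were found for the myelin genes that fell with RU-486. Mobp was at 2.05 for DEX and −0.75 for DEX + RU-486 against control, Mal at 2.37 and −0.09, and Mag at 0.87 and −0.90. In DEX, Mobp and Mal rose (adjusted p of 0.000409 and 0.000805), while Mag did not pass the threshold (adjusted p = 0.0798). None of these 3 passed it for DEX + RU-486 against control.

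The receptors themselves did not pass the test. Nr3c1, the glucocorticoid receptor, measured 9.81 to 12.5 CPM in DEX and 10.3 to 14.6 CPM with RU-486 (0.15, SE 0.16, adjusted p = 0.716). Nr3c2, the mineralocorticoid receptor, measured 6.25, 7.78, 4.47 and 5.84 CPM in DEX and 8.51, 8.99, 10.4 and 10.2 CPM with RU-486, without overlap (0.65, SE 0.19, adjusted p = 0.169). Among the chaperones that hold these receptors, Hsp90aa1 was at −0.30 (SE 0.09, adjusted p = 0.171) and Fkbp4 at 0.04. Crhr1, the receptor of corticotropin-releasing hormone, was at 0.71 (SE 0.35), and the stress gene Ddit4l, at under 1 CPM, at −0.21 (SE 0.95). The list of 19 genes for steroid receptors, chaperones and steroid enzymes had 18 tested, 0 past the threshold in edgeR, 4 lower and 1 higher with an unadjusted p below 0.05, and 1 called in each direction by DESeq2.

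Immediate early genes, which respond to neuronal activity within minutes, mostly had values below 0. Of 24 tested, 20 were below 0 with a median of −0.34. At an unadjusted p below 0.05, 10 were lower and 1 was higher, against 7.57% and 7.38% of all genes. In edgeR 0 passed the adjusted threshold and in DESeq2 6 did. Fos measured 53.1, 51.1, 46.9 and 51.5 CPM in DEX and 38.6, 31.96, 26.4 and 24.3 CPM with RU-486 (−0.74, SE 0.13, adjusted p = 0.0967). Egr1 measured 74.9, 62.4, 54.6 and 77.7 CPM against 48.4, 42.5, 32.7 and 34.6 CPM (−0.77, SE 0.14), and Jun 251, 227, 153 and 208 CPM against 132, 148, 115 and 121 CPM (−0.70, SE 0.13). Each of the 3 encodes a transcription factor, and in each the groups did not overlap and the controls (32.3 to 42.3, 43.6 to 53.8 and 132 to 157 CPM) lay below the DEX libraries for Fos and Egr1 and overlapped library 29 for Jun. The count below 0 was 21 of 24 both without libraries 35 and 36 and with RIN as a covariate, with a median of −0.26 in each. At an unadjusted p below 0.05, 6 were lower without libraries 35 and 36 and 5 with RIN as a covariate. In both fits 0 were higher, and fewer genes of any kind passed that p. Nr4a3 (0.08) and Bdnf (0.17), also activity genes, had values above 0.

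Mitochondrially encoded genes mostly had values below 0 as well. mt-Nd6, a subunit of respiratory complex I, measured 937, 936, 949.7 and 779 CPM in DEX and 534, 529, 574 and 410.1 CPM with RU-486 (−0.81, SE 0.11, adjusted p = 0.0199). The groups did not overlap and the controls, at 378 to 458 CPM, were below DEX and overlapped library 36. Of the 13 genes of the list 11 were below 0 with a median of −0.48. At an unadjusted p under 0.05, 10 were lower, against 7.57% of all genes. The median was −0.31 without libraries 35 and 36 and −0.28 with RIN as a covariate, with 6 genes lower at that p in each. DESeq2 called 8. mt-Nd5 (−0.55), mt-Nd2 (−0.65) and mt-Cytb (−0.55) were separated too, whereas mt-Co2 (0.07) and mt-Co3 (0.21) were not. mt-Nd6 lies at 13552 to 14070 on the minus strand of the mitochondrial genome and overlaps mt-Nd5 on the other strand by 14 bases. Whether counting used strand is not given in the sources used here. The 13 genes summed to 22638 to 26717 CPM in DEX and to 20742, 18355, 17605 and 14114 CPM in libraries 33 to 36, a small part of the mitochondrial share given above. Both that share and mt-Nd6 were higher in every DEX library than in any with RU-486, and both were lowest in library 36. Within groups, mt-Nd6 was highest of its group in library 35 (share 23.5%) and lowest of the DEX libraries in library 30 (share 37.9%). Whether the share accounts for the mt-Nd6 change was not tested. The value of mt-Nd6 was −0.76 without libraries 35 and 36 (adjusted p = 0.0281), −0.76 without libraries 27 and 28 (adjusted p = 0.306) and −0.78 with RIN as a covariate (adjusted p = 0.273). With both batches and batch as a covariate it was −0.05 (adjusted p = 0.975).

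Lars2, the leucyl-tRNA synthetase of mitochondria (chromosome 9, 123366927 to 123462666, plus strand), was the 1 gene that rose. It measured 239, 269, 232 and 219 CPM in DEX and 487, 435, 329 and 475 CPM with RU-486 (0.85, SE 0.12, adjusted p = 0.0229). The groups did not overlap, but the 4 controls, at 441, 428, 284 and 144 CPM, spanned both. Its value was 0.94 without libraries 35 and 36 (adjusted p = 0.00726) and 0.93 without libraries 27 and 28 (adjusted p = 0.277). Myo6, a myosin that moves vesicles towards the minus end of actin filaments (chromosome 9, 80165031 to 80311729, plus strand), measured 39.3, 31.01, 43.6 and 30.9 CPM in DEX and 18.4, 21.4, 20.6 and 19.02 CPM with RU-486 (−0.86, SE 0.13, adjusted p = 0.0379). Its controls (22.04 to 24.9 CPM) lay above the antagonist group and below DEX. The value of Myo6 was −0.87 without libraries 35 and 36 (adjusted p = 0.359) and −0.91 without libraries 27 and 28 (adjusted p = 0.277).

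The other gene lists had 0 members past the adjusted threshold in edgeR. Of 21 circadian clock genes tested, 5 had an unadjusted p below 0.05 in the higher direction and 1 in the lower, and Bhlhe40, a repressor of the clock, measured 24.8, 31.5, 33.6 and 35.8 CPM in DEX and 47.1, 41.9, 46.2 and 48.04 CPM with RU-486 (0.55, SE 0.12, adjusted p = 0.128). Its controls, at 42.7 to 47.6 CPM, overlapped the antagonist group and not DEX. DESeq2 called 1 clock gene. Potassium channel genes had 8 higher and 4 lower of 36 with an unadjusted p below 0.05 (4 called by DESeq2), led by Kcnk9, a leak channel, at 24.85, 27.8, 34.5 and 35.5 CPM against 42.3, 39.4, 85.9 and 78.3 CPM. Libraries 35 and 36 were again apart in this gene, and without them 3 channel genes were higher and 0 lower at that p. Glutamate receptor genes had 9 higher and 3 lower of 28, and 0 in either direction without libraries 35 and 36, where few genes of any kind passed that p.

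Genes of the integrated stress and unfolded protein response had 6 higher and 8 lower of 29, with Herpud1, an endoplasmic reticulum stress gene, at 35.98, 32.9, 35.8 and 44.0 CPM against 46.5, 51.5, 57.9 and 67.7 CPM (0.59, SE 0.13, adjusted p = 0.128). DESeq2 called 4 of them in each direction and 1 glutamate receptor gene. Stress granule genes had 6 lower and 0 higher of 22, with Ybx1, an RNA-binding protein of these granules, at −0.53 (SE 0.12, adjusted p = 0.131), and DESeq2 called 3. Of 6 prostaglandin synthesis genes tested, out of 10, 1 was lower at that p and DESeq2 called 0. This was Ptgds, the prostaglandin D synthase found in oligodendrocytes and meninges, which measured 2.42, 2.29, 1.82 and 1.37 CPM against 0.94, 0.47, 0.29 and 0.55 CPM (−1.81, SE 0.45, adjusted p = 0.148). The remaining 8 lists had medians of −0.11 to 0.16. Genes with an unadjusted p below 0.05 numbered 2 higher and 1 lower of 28 for cholesterol synthesis and uptake, 3 and 0 of 17 for GABA receptors, 5 and 2 of 30 for synaptic vesicles and release, and 3 and 1 of 19 for neurotrophins and growth factors. For lipid and glucose metabolism they numbered 6 and 2 of 27, for stress kinases and mTOR regulators 4 and 0 of 16, for metallothioneins and zinc transporters 1 and 1 of 11, and for inflammatory and interferon genes 1 and 2 of 15. DESeq2 called 1 member each in the synaptic vesicle, lipid and glucose, and stress kinase lists and 0 in the other 5. Without libraries 35 and 36 the counts were 1 and 0 for lipid and glucose metabolism, 0 and 0 for stress kinases and mTOR regulators, 1 and 0 for circadian clock genes and 0 and 2 for stress granule genes. Among single members, Sesn2, a stress-induced regulator of mTOR, was at 0.55 (SE 0.15), Abcg1, a cholesterol exporter, at 0.84 (SE 0.26), Mt1, a metallothionein, at −0.73 (SE 0.30), Cxcl12, a chemokine, at 0.98 (SE 0.40) and Ntrk3, a neurotrophin receptor, at 0.35 (SE 0.11), none past the adjusted threshold.

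The ribosomal protein genes, the family at the centre of the study, had 82 of 85 members tested, of which 68 were below 0 with a median of −0.15. In edgeR 0 passed the adjusted threshold, and DESeq2 called 10. At an unadjusted p below 0.05, 24 were lower and 0 higher, against 7.57% and 7.38% of all genes. Their summed level was 13406 to 14566 CPM in DEX and 12978, 14011, 9344 and 10564 CPM in libraries 33 to 36. Libraries 33, 35 and 36 thus lay below every DEX library and library 34 within the DEX range. The lowest sums were those of libraries 35 and 36, which had the highest RIN. Values of this list without these libraries or with RIN as a covariate are not given here. The controls, at 10988 to 14129 CPM, overlapped both groups. Of 300 ribosomal protein pseudogenes 133 were tested, with a median of −0.11, 5 lower and 2 higher at that p, 0 past the adjusted threshold and 3 called by DESeq2. Reads of these copies can be hard to assign to 1 locus.

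**Figure D5:**
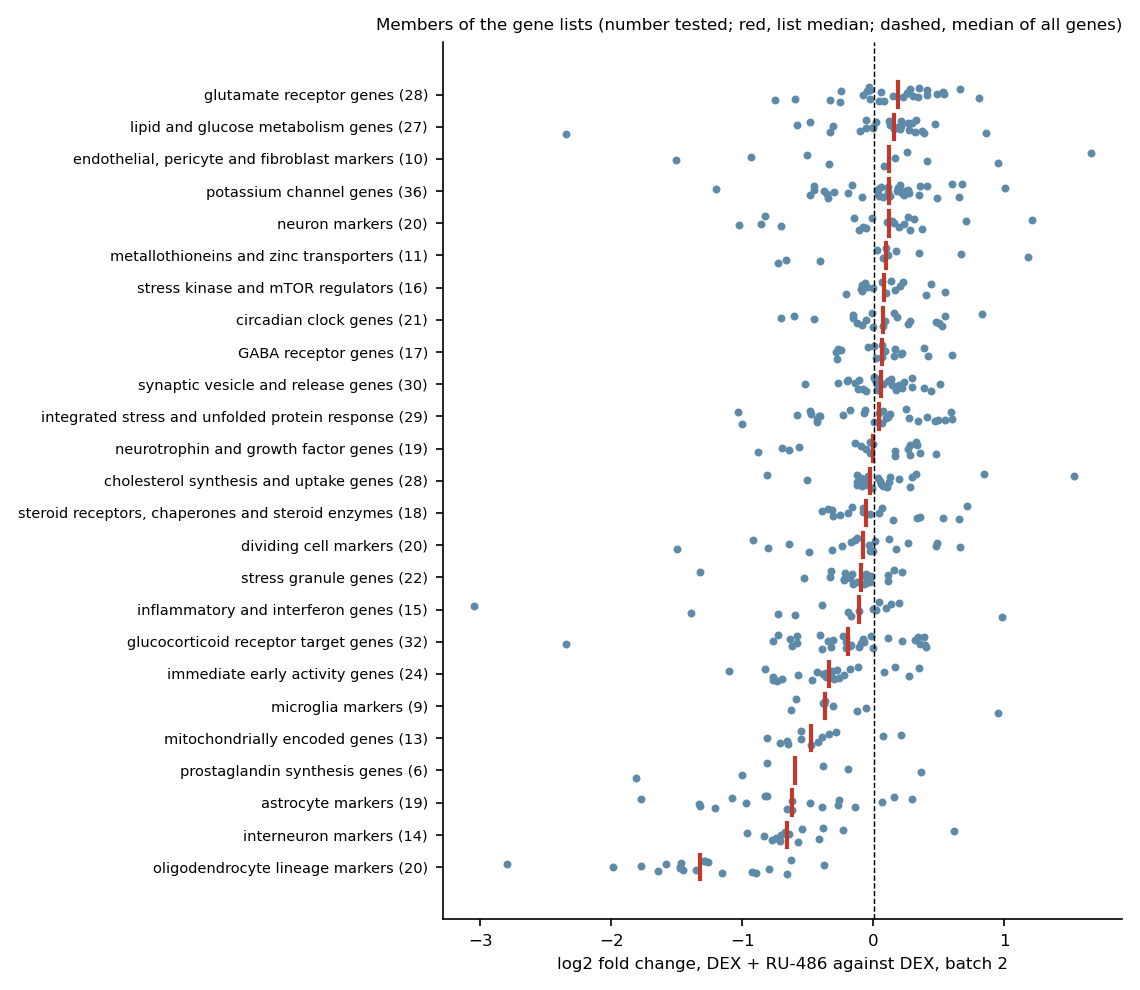
Log2 fold change of DEX + RU-486 against DEX in batch 2 (x axis) for each tested member of 25 gene lists (rows, with the number tested), with red bars at the list medians. The oligodendrocyte lineage list has the lowest median, −1.32, and the glutamate receptor list the highest, 0.19, against 0.0044 for all genes.

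The same contrast was measured in batch 1, in 5 libraries of each group that are not part of the batch 2 comparison, with RIN of 6.2 to 7.8 in DEX and 6.6 to 7.9 in DEX + RU-486. There edgeR called 0 of 18303 genes, with 271 higher (1.48%) and 506 lower (2.76%) with an unadjusted p below 0.05, and DESeq2 called 1 higher and 10 lower. Mobp measured 83.7 to 125 CPM in DEX and 22.7 to 79.0 CPM with RU-486, again without overlap, with a log2 fold change of −1.07 and an SE of 0.25 (adjusted p = 0.951). Of 19 oligodendrocyte lineage markers tested, 19 were below 0 with a median of −0.60, 7 with an unadjusted p below 0.05, the same direction as in batch 2. The immediate early genes were below 0 in 24 of 24, against 49.2% of all genes, with a median of −0.21, and 1 was lower and 0 higher by unadjusted p. The ribosomal protein pseudogenes were below 0 in 123 of 127 tested, with a median of −0.50 and with 20 lower and 0 higher at that p. The ribosomal protein genes themselves were below 0 in 45 of 82, with a median of −0.01. The direction was opposite to that of batch 2 for the mitochondrially encoded genes, with a median of 0.56 and 7 of 13 higher with an unadjusted p below 0.05, and for Lars2, at −0.86. The difference between the batches was tested directly as an interaction in edgeR. It passed the adjusted threshold for 0 of 19463 genes (0.0%), with 766 positive and 853 negative with an unadjusted p below 0.05, and DESeq2 called 28. The interaction had an adjusted p of 0.206 for mt-Nd6 and 0.286 for Mobp and Lars2.

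Genes that differed between DEX and control in batch 1 were then looked up in the batch 2 comparison, which shares no library with that contrast. In batch 1 DEX against control, 1706 of 19288 genes (8.84%) were higher and 2304 (11.9%) lower, a balance that turned to 2172 and 1541 with upper-quartile factors. Of the higher genes 1656 were tested in batch 2, and 312 of them (18.8%) were lower with RU-486 with an unadjusted p below 0.05 and 48 (2.90%) higher, against 7.81% and 7.83% of all genes tested in both. Of 2301 that were lower in DEX in batch 1, 411 (17.9%) were higher with RU-486 and 116 (5.04%) lower. Of the 8 genes past the threshold in batch 2, 7 were in the higher list of batch 1, with Mobp, Mal, Mag, Myo6 and Lars2 among them, and 6 of these 7 fell with RU-486 while Lars2 rose. In batch 1 RIN was 6.2 to 7.8 in DEX and 7.8 to 9.2 in control, and in batch 2 it was 7.4 to 7.7 in DEX and 7.6 to 8.7 with RU-486, so RIN ran with the treatment in both. When RIN was a covariate in batch 2, 73 (4.41%) of the higher genes were lower with RU-486 and 45 (2.72%) higher, against 1.92% and 1.50% of all. When it was a covariate in both fits 12 of 296 were lower and 10 higher. With RIN as a covariate in the batch 1 fit only, 50 of 296 (16.9%) were lower and 4 (1.35%) higher, against 7.81% and 7.83% of all. Of the 1186 genes lower in DEX in that fit, 213 (18.0%) were higher with RU-486 and 54 (4.55%) lower. Without libraries 35 and 36, 126 of 1652 higher genes (7.63%) were lower with RU-486 and 29 (1.76%) higher, against 2.91% and 1.50% of all. For the genes lower in DEX, 46 (2.00%) were higher with RU-486 and 33 (1.43%) lower with RIN as a covariate in batch 2, and 16 (1.35%) were higher and 21 (1.77%) lower of 1186 with RIN in both fits, near the 1.50% and 1.92% of all genes. Without libraries 35 and 36, 71 (3.09%) were higher and 43 (1.87%) lower, against 1.50% and 2.91% of all. The part of RIN in this pattern was not tested beyond these values, and that of depth and mitochondrial share was not tested.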

How the data were processed

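RNA-seq libraries of 36 cultures of mouse cortical cells gave 1 deposited table of raw counts per gene and library, which the authors did not normalize. Per the labels and the study's methods, reads were aligned with HISAT2 2.1.0 to GRCm38 and counted with Subread 1.5.0-p2. Which of the study's 2 alignments the table holds, the annotation release and the use of strand are not given in the sources used here. The labels give poly(A) selection and the methods a total RNA library. All columns were mapped to a sample. The 5 transgene rows were left out. Of 55487 gene identifiers, 55227 matched GENCODE M21, the source of symbols and positions (1-based). Promoters came from RefSeq.

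Genes with a mean count above 5 over the libraries compared entered edgeR 4.0.16 under R 4.3.3 (TMM factors, quasi-likelihood test, two-sided), with Benjamini-Hochberg adjusted p under 0.05 over all genes tested as the threshold. CPM used TMM factors over the 28 libraries of RIN 6 or above. An SE is that of a log2 fold change. Only the 8 libraries compared entered the main fit, and the contrasts with control in batch 2 came from a fit of 12 libraries. Depth of 21333085 to 29263007 counts per library sets the counting precision, and low genes have wide errors. The alternatives were DESeq2 1.42.0, other scaling factors, filters and thresholds, RIN as a covariate, other sets of libraries and each library left out. Leaving out pairs of libraries or the mitochondrial genes, and RIN in the look-up of batch 1 genes, were added with the data in view. The fits were also run on simulated data. Of 100 genes changed 2-fold edgeR called 47 and DESeq2 48, and of 100 changed 4-fold they called 66 and 75. Of 20027 unchanged genes edgeR called 1 and DESeq2 26. These figures belong to the simulated counts only. Whether they hold for the 8 libraries, which differ in RIN and mitochondrial share, was not tested. They therefore give no rate of missed or false calls for the comparison reported here. The comparison, the 25 gene lists and the 37 named genes were chosen with earlier results of these data known. Named were, with no overlap of libraries and at least 1 CPM, up to 12 genes per direction past the threshold, up to 4 such members of each list or else the member with the smallest p, and 8 genes of the glucocorticoid response. Other list members were named after their values were seen. The values of 2 genes past the threshold are not reported here.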

Additional observations from a re-analysis of the deposited data

Results flagged for a closer look

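Within groups of 4 libraries, 119 sets of values were screened for a library far from the other 3 (Dixon's test at the 95% level), a screen that marks about 1 set in 20 by chance, and 2 were marked. The level of mt-Nd6 in DEX library 30 was 778.8 CPM, below the other DEX libraries at 936 to 949.7 CPM. The level of Sgk1 in DEX + RU-486 library 33 was 14.12 CPM, above the others of its group at 12.2 CPM each.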

How the results depend on the processing

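Of the 8 genes past the threshold in batch 2, Mobp kept it in 19 of 21 other settings, Mal in 15, and the others in 7 to 10. The 2 settings in which Mobp lost it are those that include the libraries of RIN under 3. Genes higher and lower, 1 and 7 as reported, numbered 300 and 361 with DESeq2, 547 and 611 without a filter on low counts, 154 and 160 in the 3-group fit, 0 and 1 with RIN as a covariate or with both batches and batch as a covariate, 0 and 0 with the libraries of RIN under 3 included (with or without a term for them), 0 and 2 at an adjusted p under 0.01, 0 and 2 without DEX libraries 27 and 28, and 1 and 4 without DEX + RU-486 libraries 35 and 36. Leaving out 1 library gave 0 to 1 higher and 1 to 6 lower, with the fewest, Mobp alone, without library 33. With both batches and batch as a covariate Lars2 turned to −0.11 and mt-Nd6 shrank to −0.05, the direction of each in batch 1 being the opposite. In batch 1, 0 and 0 became 1 and 10 with DESeq2 and 12 and 45 without a filter, and leaving out 1 library gave 0 higher and 0 to 2 lower, the 2 being without library 13. DEX against control in batch 1, 1706 higher and 2304 lower, gave 299 and 1187 with RIN as a covariate, 2956 and 2406 without a filter, 2172 and 1541 with upper-quartile factors and 2380 and 2315 with DESeq2. The interaction of 0 genes became 28 with DESeq2 and 0 to 8 when 1 library was left out, 8 without library 7 and 1 without library 8. DESeq2 gives no adjusted p for 8235 of the 20227 genes in batch 2. Where not stated, the cause was not tested.

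No paired analysis was possible because each library carries its own number and no number is shared between groups. RIN and mitochondrial share run with the groups, and interneuron markers and Slc17a7 set libraries 35 and 36 apart from the other libraries. With 4 libraries a group this leaves residual confounding that cannot be told apart from treatment.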
